A study of Homo sapiens with 30 samples.

Results

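The genes described here are 7 human fucosyltransferase genes, FUT1, FUT3, FUT4, FUT6, FUT8, FUT10 and FUT11, found by symbol among the 61578 genes of the count tables. FUT3 and FUT6 were selected on their measured rise after treatment in 2 of the cell lines, Y1F and S5A, so their values there are given as a description without a test. The other 5 belong to the same enzyme family. Poly(A) RNA of 30 libraries, all labelled A549 (a lung carcinoma cell line), was measured in 15 groups of 2. In each of 7 lines carrying a degron on RPB1, the largest subunit of RNA polymerase II, treated cells stood against untreated cells of the same line. A degron is a tag through which a ligand, here dTAGV-1, sends the tagged protein for destruction. The Degron line carried no other RPB1 and was treated with 100 nM dTAGV-1 for 12 h. The other 6 lines also carried a doxycycline-induced RPB1 complement, and received 2 µg/mL doxycycline for 24 h and then 100 nM dTAGV-1 for 12 h. That complement was wild type in the line named WT. In Y1F, S2A, T4V, S5A and S7A it had 1 residue of the repeat in its carboxy-terminal tail replaced, as each name says. Mock cells, labelled WT in genotype, were untreated. Nothing in the labels says whether a line was 1 clone or whether the 2 libraries of a group came from separate cultures, so p-values measure the spread between these libraries, which may be technical.

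Fucosyltransferases move the sugar fucose from GDP-fucose onto glycans and proteins. FUT3, FUT4, FUT5 and FUT6 put fucose on the outer N-acetylglucosamine of glycan chains and so build the Lewis family of antigens, among them sialyl Lewis x, which selectins bind. FUT3, the Lewis blood group enzyme, also makes Lewis a and Lewis b, and FUT6 is the enzyme behind the fucosylation of many plasma proteins. FUT1 makes the H antigen of the ABO system, FUT8 adds the core fucose of N-glycans, and FUT10 and FUT11 are enzymes of the endoplasmic reticulum reported to fucosylate proteins directly.

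Totals were 10866089 to 17912802 counts per library. The label A549 was checked against its markers, which stood apart between Mock and the 7 lines. TPM values divide counts by gene length and by the library's total. KRT7, a keratin of lung epithelium, was at 0 to 0.170 TPM in the 28 libraries of the lines (at 0 in 24 of them), against 1446 and 1593 TPM in Mock, and AKR1B10 was at 0 to 0.201 TPM, against 9714 and 9747 TPM. CDKN2A, reported as deleted in A549, was at 96.2 to 191 TPM in the lines and at 0 in both Mock libraries. Of the 12 lung and A549 markers, 10 were lower in every library of the lines than in Mock. NKX2-1, a transcription factor of the lung lineage, was higher, at 1.53 to 14.2 TPM in the lines against 0 and 0.303 TPM in Mock. SFTPB, a surfactant gene, overlapped at 0 to 1.18 TPM in the lines against 0.0733 and 0.0778 TPM in Mock. The 12 together summed to 72.4 to 148 TPM in the lines and 29220 to 29620 TPM in Mock, so the lines went against the label by most of these genes. A list of 5 markers of HEK293 or neuronal cells summed to 69.3 to 601 TPM in the lines and 4.51 to 5.92 TPM in Mock. Of these, IRS4 was at 12.3 to 373 TPM in the lines against 0.0181 and 0.0192 TPM in Mock, while PAX2 overlapped. Each result below that uses Mock rests on these 2 libraries, and leaving them out of the fit ended no call of a fucosyltransferase gene between treated and untreated cells. POLR2A, the gene of RPB1, averaged 512 ± 33.3 TPM in treated and 197 ± 13.3 TPM in untreated S5A cells (SD, n = 2 each). In the Degron line it averaged 248 ± 77.6 TPM in treated and 184.5 ± 54.2 TPM in untreated cells (SD, n = 2 each). Over the lines its treated means ran from 238 TPM (T4V) to 741 TPM (S7A), and its untreated means from 144 TPM (S2A) to 280 TPM (S7A). By the edgeR quasi-likelihood test its rise was not called in T4V (adjusted p = 0.11) or in the Degron line (0.093). No difference in its change between a mutant and WT was called (0.23 to 0.97). dTAGV-1 acts on the protein and all copies count together, so this mRNA says nothing of the degradation.

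FUT6, FUT3 and FUT5 lie side by side on chromosome 19 in one orientation, and the first 2 of these carry the largest rises of the family. In GENCODE 29 (GRCh38) FUT6 spans chr19:5830610-5839731 and FUT3 chr19:5842888-5851474, both on the minus strand with 3157 bp between them, and FUT5 spans chr19:5865826-5870540, also on the minus strand. FUT1 lies far off on the same chromosome (chr19:48748011-48755390, minus strand). FUT4 is at chr11:94543840-94549898 (plus strand), FUT8 at chr14:65410592-65744121 (plus strand) and FUT11 at chr10:73772291-73780251 (plus strand). Promoter sequences were taken from the RefSeq table (GRCh38.p14) for 5 of the 7 members. The promoters of FUT3, FUT6 and FUT4 are shown because the mRNAs of the first 2 rose where that of FUT4 fell. Each runs 5′ to 3′ on the gene's strand, from 250 bases before to 50 after the annotated start, and capitals mark a GC box.
FUT3 promoter, chr19:5851400-5851699, minus strand: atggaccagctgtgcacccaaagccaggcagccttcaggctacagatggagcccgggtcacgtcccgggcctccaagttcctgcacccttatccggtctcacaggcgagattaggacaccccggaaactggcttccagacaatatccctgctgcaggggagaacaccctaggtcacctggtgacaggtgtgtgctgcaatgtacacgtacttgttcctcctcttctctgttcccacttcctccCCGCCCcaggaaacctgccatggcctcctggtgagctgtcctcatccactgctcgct
FUT6 promoter, chr19:5839653-5839952, minus strand: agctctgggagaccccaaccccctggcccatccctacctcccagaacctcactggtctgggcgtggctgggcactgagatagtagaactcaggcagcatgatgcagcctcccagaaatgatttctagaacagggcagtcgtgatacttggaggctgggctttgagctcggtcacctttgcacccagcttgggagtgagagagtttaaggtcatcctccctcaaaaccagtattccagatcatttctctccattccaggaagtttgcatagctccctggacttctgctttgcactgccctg
FUT4 promoter, chr11:94543671-94543970, plus strand: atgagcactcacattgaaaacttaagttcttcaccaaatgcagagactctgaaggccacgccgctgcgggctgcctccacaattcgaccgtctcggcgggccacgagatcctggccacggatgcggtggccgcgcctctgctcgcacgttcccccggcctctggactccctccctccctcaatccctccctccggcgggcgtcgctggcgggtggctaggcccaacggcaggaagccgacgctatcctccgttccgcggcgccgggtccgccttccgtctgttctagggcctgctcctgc
The GC box was searched as GGGCGG on both strands, and it was found in 45.0% of the 35116 RefSeq promoters of this length. The TATA box was searched as TATAAA, which 11.5% of promoters held. The CCAAT box was searched by those letters, which 34.6% held. The FUT3 window held 1 GC box, read on the other strand, and neither other motif, so no motifs overlapped. None of these letters were in the windows of FUT6 and FUT4. The FUT3 promoter held 9 CpG dinucleotides and the FUT6 promoter 3, while the FUT4 promoter held 30, against a median of 14 over all promoters (quartiles 4 and 28). Among members not shown, the annotated promoters of FUT1, an mRNA that also rose, held 3 and 30 CpG, the latter with 4 GC boxes. Those of FUT8 held 1, 23 and 40. Any tie between CpG content and the changes was not tested.

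The coding sequences of FUT3, FUT5 and FUT6 are close to one another, which bears on how reads can be assigned. FUT3 and FUT6 were identical at 88.5% of 1082 aligned coding bases (GENCODE 29 transcripts), FUT3 and FUT5 at 93.9%, and FUT3 and FUT4 at 56.7%. The 60 coding bases below, 5′ to 3′, are where the 3 clustered genes differ most, and capitals mark the 19 positions at which they are not all alike.
FUT3, coding bases 167 to 226: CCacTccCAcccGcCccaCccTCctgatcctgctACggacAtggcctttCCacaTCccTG
FUT5, coding bases 206 to 265: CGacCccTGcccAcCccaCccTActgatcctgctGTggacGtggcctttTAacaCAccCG
FUT6, coding bases 164 to 223: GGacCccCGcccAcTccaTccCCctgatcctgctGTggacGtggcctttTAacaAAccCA
FUT3 and FUT6 differ at 17 of these positions, and a read from such a stretch can be told apart. Elsewhere the genes share runs of up to 272 bases (FUT3 and FUT6), and 13.1% of the 150-base windows of FUT3 also occur in FUT6. The treatment of reads that match several genes is not given in the sources used here, so counts of FUT3, FUT5 and FUT6 are uncertain by the reads they share. The same holds for FUT3 and an antisense gene that overlaps it, since the sources used here do not say whether reads were counted by strand.

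FUT3 reached the highest level of any member in treated S5A and Y1F cells, and it was higher in treated than in untreated cells of every line. In bulk RNA, a change in the number of cells with a transcript and a change per cell cannot be told apart. In treated S5A cells it was at 28.9 and 30.7 TPM, against 0.516 and 0.323 TPM in untreated S5A cells (266 and 313 reads against 6 and 3). In treated Y1F cells it was at 19.4 and 17.5 TPM, against 0.431 and 0.580 TPM in untreated Y1F cells. These 2 lines stood far above all others, and they are the ones that chose the gene: the fitted log2 differences were 6.13 ± 0.28 in S5A and 5.15 ± 0.30 in Y1F (standard error). In the lines that did not choose it, FUT3 rose too. The Degron line had 6.65 and 7.64 TPM in treated cells, against 1.47 and 0.983 TPM in untreated cells. S7A cells had 4.79 and 6.82 TPM treated, against 0.512 and 0.186 TPM untreated. S2A cells were at 3.40 and 2.74 TPM treated, against 0.550 and 0.529 TPM untreated. No treated library overlapped an untreated one in any of these lines, nor in T4V and WT. T4V cells had 2.76 and 3.29 TPM when treated, against 0.490 and 0.895 TPM untreated. WT cells had 2.64 and 3.20 TPM when treated, against 0.5999 and 0.667 TPM untreated.

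The test outside Y1F and S5A called FUT3 higher in all 5 lines (edgeR quasi-likelihood test on counts, Benjamini-Hochberg adjustment over the 19982 genes tested, called at an adjusted p under 0.05). The log2 change was 4.04 ± 0.35 in S7A (adjusted p = 2.9e-08), 2.63 ± 0.26 in the Degron line (7.7e-08) and 2.62 ± 0.36 in S2A (1.1e-05). It was 2.27 ± 0.35 in T4V (5.7e-05) and 2.24 ± 0.35 in WT (0.0005, and 0.065 when the 4 WT libraries were fitted alone). The S7A value rose to 4.96 when untreated S7A replicate 1, which held 6 of the 8 untreated reads, was left out. By mean level among treated cells the order was S5A (29.8 TPM), Y1F (18.5), Degron (7.15), S7A (5.81), S2A (3.07), T4V (3.03) and WT (2.92). The libraries of Degron and S7A overlapped in this order, as did those of S2A, T4V and WT. Whether the change itself differed between lines was tested outside the 2 choosing lines, and no difference was called. S7A exceeded WT by 1.80 ± 0.59 on the log2 scale (adjusted p = 0.15), S2A by 0.38 ± 0.56 (0.79) and T4V by 0.03 ± 0.58 (adjusted p of 1), and WT stood 0.40 ± 0.51 below the Degron line (0.72).

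**Figure D1:**
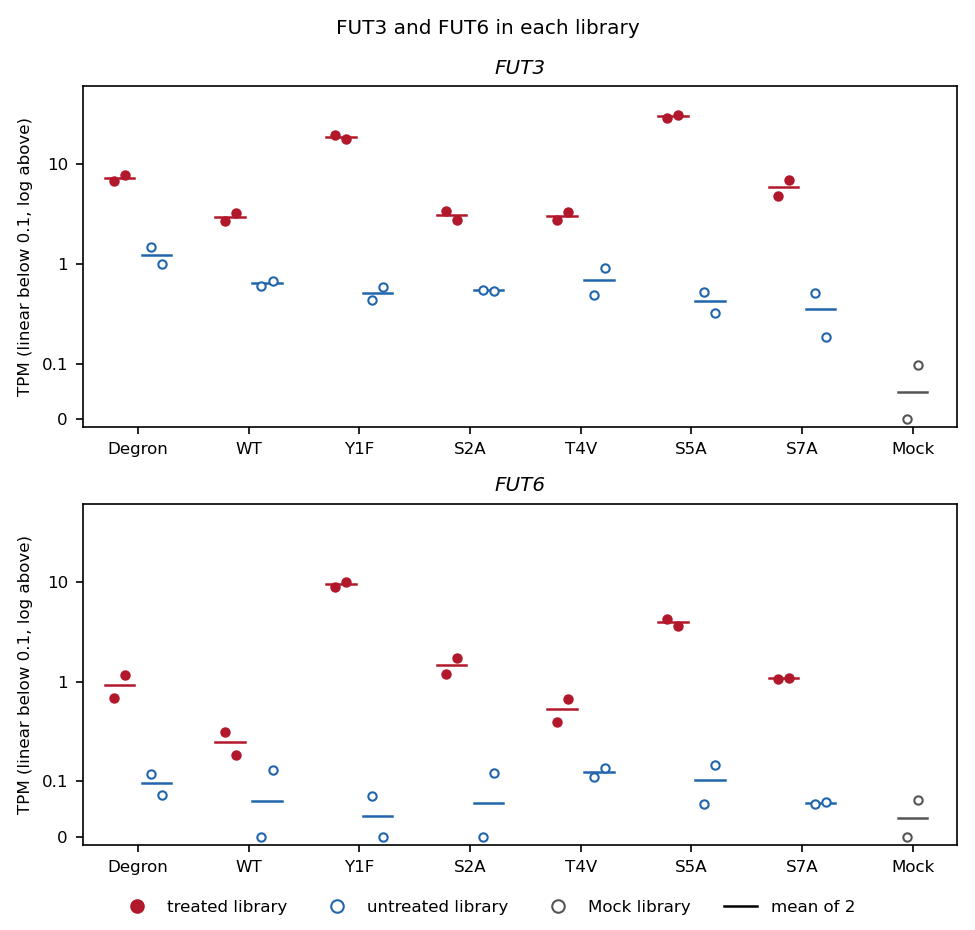
TPM of FUT3 and FUT6 in each of the 30 libraries, by line with treated cells left of untreated cells and Mock last; points are libraries and the axis is linear below 0.1 TPM and logarithmic above. Treated S5A and Y1F libraries stand highest for FUT3 (17.5 to 30.7 TPM), and treated Y1F libraries stand highest for FUT6 (8.79 and 10.0 TPM).

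FUT6 rose with FUT3 but ranked the lines otherwise. Treated Y1F cells had 8.79 and 10.0 TPM (181 and 136 reads), against 0.0736 and 0 TPM in untreated Y1F cells (1 and 0 reads). Treated S5A cells had 4.24 and 3.62 TPM (57 and 54 reads), against 0.0588 and 0.147 TPM in untreated S5A cells (1 and 2 reads). These values chose the gene. As ratios of scaled counts they come to 239 in Y1F (exact 95% counting interval 42.6 to 9464) and 41.4 in S5A (13.8 to 204), intervals that cover counting error only. The Y1F ratio rests on 1 untreated read, so without untreated Y1F replicate 1 no untreated read is left. In S5A the fitted log2 difference rests on 3 untreated reads: it was 5.25, and it was 4.70 without untreated replicate 1 and 5.92 without untreated replicate 2.

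Among the other lines FUT6 was called higher in 4 of 5. S2A cells had 18 and 25 reads treated, against 0 and 2 untreated, a ratio of 26.0 (6.77 to 222, adjusted p = 1.4e-05). Both untreated reads were in replicate 2, and the call held without it (0.00013). S7A cells had 16 and 16 reads treated, against 1 and 1 untreated, a ratio of 18.3 (4.68 to 158, adjusted p = 0.00012). The Degron line had 13 and 25 reads in treated cells, against 2 and 1 in untreated cells, a ratio of 10.4 (3.29 to 52.5, adjusted p = 0.00025). In none of these lines did the groups overlap. T4V cells had 5 and 10 reads treated, against 2 and 2 untreated, a log2 change of 2.17 ± 0.70 (adjusted p = 0.025). That call was lost without T4V untreated replicate 1 (0.12), untreated replicate 2 (0.065) or treated replicate 2 (0.21), and also by DESeq2 (0.052), under mitochondrial scaling (0.064) and under the authors' factors (0.059). WT cells had 4 and 3 reads treated, against 0 and 2 untreated, a ratio of 3.99 (0.759 to 39.3) that was not called (adjusted p = 0.31). No difference in change between lines was called for FUT6 where it could be tested (adjusted p = 0.35 for S2A against WT and 0.61 for S7A against WT), with 2 untreated WT reads in all. FUT6 passed the filter on low counts only through treated libraries, and FUT3 through those and 1 untreated Degron library, so their presence among the tested genes goes with their rise.

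The proportion of the 2 mRNAs per unit of length was not the same in every line. FUT3 was 2.21 and 1.75 times FUT6 in TPM in treated Y1F libraries and 2.84 and 1.58 times in treated S2A libraries. It was 6.82 and 8.48 times FUT6 in treated S5A libraries, 4.48 and 6.31 times in S7A, and 9.67 and 6.55 times in the Degron line. The Y1F and S2A libraries thus lay below every other treated library in this ratio, T4V (7.02 and 4.97) and WT (8.41 and 17.6, on 7 FUT6 reads) included. No test was made of this ratio beyond these values.

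Around the cluster, the counts of the antisense gene and, in 1 line, of FUT5 were higher too. The antisense gene ENSG00000267709 overlaps FUT3 on the other strand and followed it: 31.2 TPM treated against 0.787 TPM untreated in S5A, and 25.1 TPM against 0.292 TPM in Y1F (means of 2). It was called higher in 4 of the 5 other lines, from 1.84 ± 0.52 in T4V (adjusted p = 0.012) to 3.57 ± 0.45 in S7A (5e-06) on the log2 scale, and not in WT (2.05 ± 0.60, 0.054). Reads of this gene and of FUT3 cannot be told apart without strand. FUT5, the other Lewis-type enzyme of the cluster, had 10 and 13 reads in treated S5A cells, against 2 and 1 in untreated S5A cells (adjusted p = 0.0024, mean 1.84 TPM against 0.218 TPM), and was called in no other line. FUT5 passed the filter on low counts only through both treated S5A libraries and 1 treated S7A library, so its place among the tested genes goes with that rise. In Y1F it had 12 and 8 reads treated, against 2 and 3 untreated (adjusted p = 0.08), and in T4V it had none in either group. FUT3 and FUT5 were identical at 93.9% of aligned coding bases, and FUT3 had 266 and 313 reads in the treated S5A libraries. The part of shared reads in the FUT5 counts was not tested. Of the flanking genes shown, NRTN and NDUFA11 were not called in any line. NRTN, which encodes the growth factor neurturin and lies 2286 bp from FUT6, changed by -0.67 to 0.06 on the log2 scale, and NDUFA11, a subunit of mitochondrial complex I 20736 bp from FUT5, by -0.32 to 0.22.

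**Figure D2:**
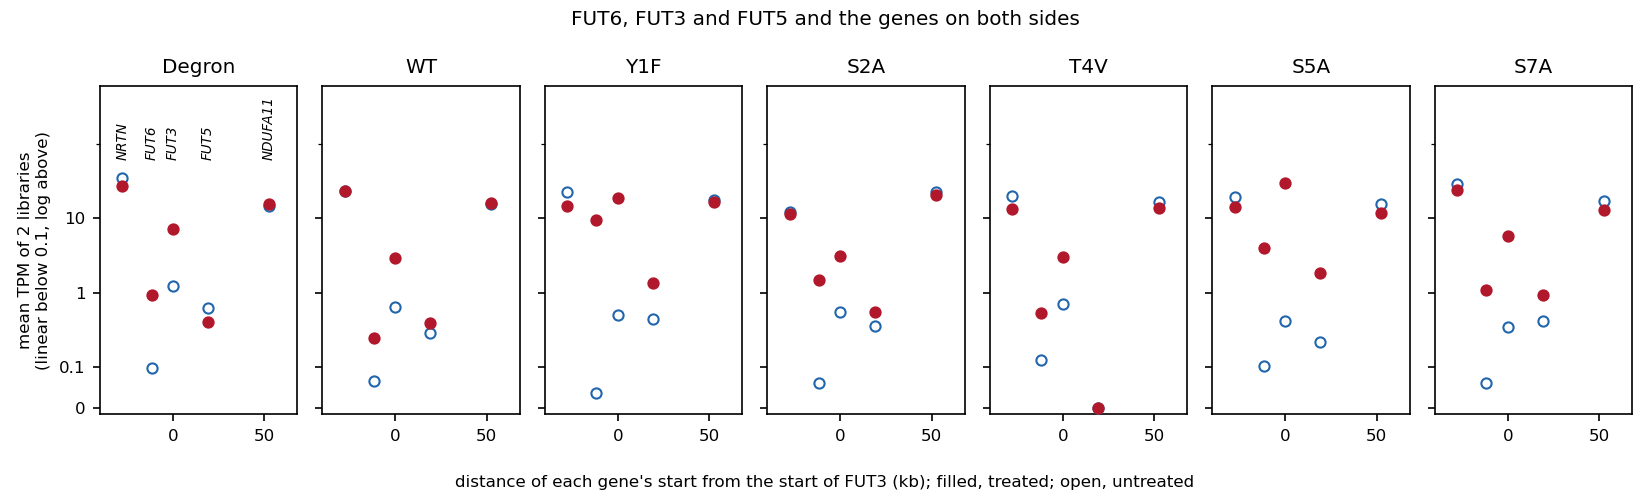
Mean TPM of the genes around FUT3 in each line (2 libraries each, linear below 0.1 TPM and logarithmic above), against the distance of each gene's start from the start of FUT3 in kb, with filled points for treated and open points for untreated cells. FUT6 and FUT3 are separated between treated and untreated cells, while NRTN and NDUFA11 are not. FUT5 stands at 1.84 TPM treated against 0.218 TPM untreated in S5A, and at 0 in both groups of T4V. The overlapping antisense gene is not drawn.

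FUT4, the myeloid-type enzyme of the Lewis group, went the other way. Untreated cells of the 7 lines held 7.90 to 12.8 TPM, more than of any other Lewis-type gene. The Degron line had 3.17 and 2.73 TPM in treated cells, against 8.84 and 12.0 TPM in untreated cells (log2 change -1.69 ± 0.15, adjusted p = 1.8e-08). S7A cells had 3.87 and 3.34 TPM treated, against 7.90 and 9.04 TPM untreated (-1.18 ± 0.16, 7.1e-06). These 4 were the lowest treated libraries, and every treated library outside WT lay below every untreated library of the lines. Y1F cells had 6.39 and 5.03 TPM treated, against 11.9 and 12.1 TPM untreated (-1.07 ± 0.14, 4.6e-06). S5A cells had 6.22 and 6.93 TPM treated, against 12.8 and 10.2 TPM untreated (-0.76 ± 0.14, 0.00017). The groups did not overlap in any line, and FUT4 was lower in every treated library. S2A cells had 7.27 and 7.13 TPM treated, against 10.8 and 12.0 TPM untreated (-0.53 ± 0.14, 0.0055), a call lost without untreated replicate 2 (0.056). T4V cells had 7.78 and 6.58 TPM treated, against 10.7 and 11.5 TPM untreated (-0.51 ± 0.14, 0.01), a call lost without treated replicate 2 (0.16), without the low-count filter (0.058) and with the 4 T4V libraries fitted alone (0.11). WT cells had 10.5 and 8.86 TPM treated, against 12.4 and 12.5 TPM untreated, which was not called (-0.34 ± 0.14, 0.18) except under mitochondrial scaling (-0.56). PIWIL4, a gene of the piRNA pathway that overlaps FUT4, was called higher in the Degron line (0.98) and Y1F (1.32), and how reads in the overlap were assigned is not given in the sources used here.

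Because FUT3 and FUT6 rose while FUT4 fell, the summed mRNA of the 4 Lewis-type genes FUT3, FUT4, FUT5 and FUT6 kept its size in some lines and grew in others. It was 42.1 ± 1.49 TPM in treated and 12.2 ± 1.95 TPM in untreated S5A cells, and 34.9 ± 1.41 TPM in treated and 12.9 ± 0.34 TPM in untreated Y1F cells (SD, n = 2 each). In the Degron line it was 11.4 ± 0.62 TPM treated and 12.4 ± 1.237 TPM untreated, and in WT 13.2 ± 0.83 TPM treated and 13.5 ± 0.44 TPM untreated. FUT3 supplied 70.7% of the sum in treated S5A cells, 62.5% in the treated Degron line, 52.9% in treated Y1F and 50.8% in treated S7A. It supplied 28.2% in treated T4V, 24.98% in treated S2A and 22.2% in treated WT cells. These shares are means of 2 libraries. FUT4 supplied 83.8% to 94.0% in the untreated lines. FUT6 supplied 27.0% in treated Y1F and 9.35% in treated S5A cells. These sums include the values that chose FUT3 and FUT6 and are not tested.

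**Figure D3:**
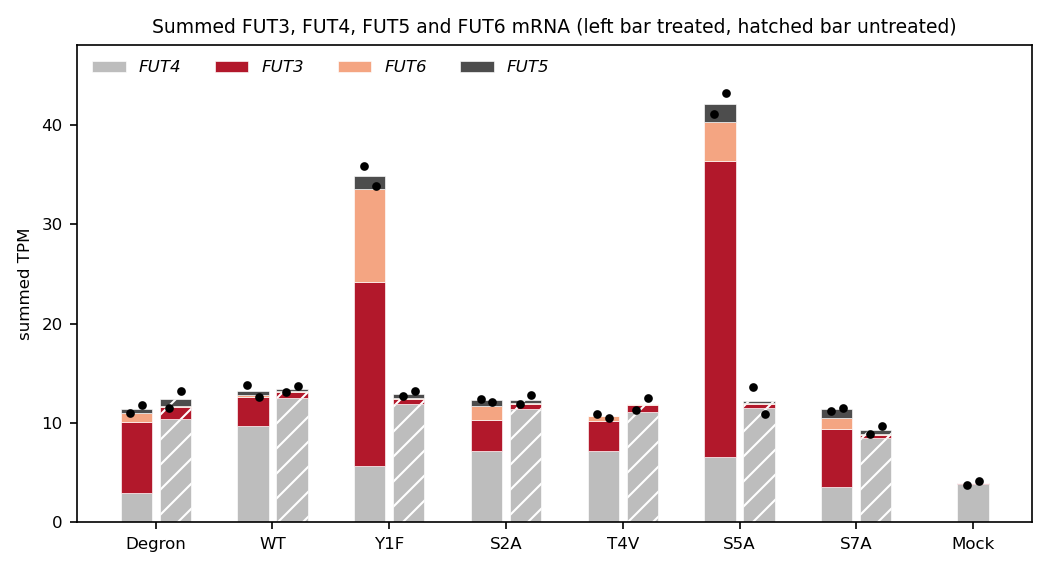
Summed TPM of FUT3, FUT4, FUT5 and FUT6 by line (means of 2 libraries), treated in the left bar and untreated in the hatched bar, stacked by gene, with Mock last. FUT4 makes up most of every untreated bar, and the treated S5A and Y1F bars reach 42.1 and 34.9 TPM.

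FUT1, the enzyme of the H antigen, was near the limit of detection and rose in 2 lines. Treated Y1F cells had 17 and 18 reads (0.863 and 1.38 TPM), against 2 and 1 reads (0.154 and 0.0829 TPM) in untreated Y1F cells, a ratio of 8.79 (2.77 to 44.7, adjusted p = 0.0029). Treated S7A cells had 8 and 21 reads, against 1 and 2 reads in untreated S7A cells, a ratio of 11.1 (3.43 to 56.8, adjusted p = 0.002). The S7A call was lost without treated replicate 2 (0.065), where the fitted log2 change was 2.48 against 3.36. WT cells had 4 and 10 reads treated, against 2 and 0 untreated, a ratio of 7.97 (1.83 to 72.3) that was not called (0.11, and 0.043 without the low-count filter). Treated S5A cells had 7 and 10 reads, against 4 and 5 in untreated S5A cells, which was not called either (0.22). FUT1 passed the filter in 4 libraries only, all of them treated, so its place among the tested genes goes with its rise.

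FUT10 (on chromosome 8) and FUT11, the members of the endoplasmic reticulum, fell in part of the lines. FUT10 was at 8.997 and 8.45 TPM in treated S5A cells, against 19.1 and 19.6 TPM in untreated S5A cells (log2 change -1.10 ± 0.14, adjusted p = 1.9e-06). It was at 6.79 and 6.77 TPM in treated Y1F cells, against 12.5 and 12.0 TPM in untreated Y1F cells (-0.87 ± 0.15, 7.1e-05). The Degron line had 7.39 and 5.57 TPM in treated cells, against 13.3 and 12.1 TPM in untreated cells (-0.86 ± 0.14, 5.9e-05). Groups did not overlap in these lines, nor in the next pair. S7A cells had 9.06 and 6.39 TPM treated, against 13.5 and 11.4 TPM untreated (-0.64 ± 0.15, 0.0017), a call lost without treated replicate 2 (0.055). S2A cells had 10.1 and 10.5 TPM treated, against 18.0 and 16.7 TPM untreated (-0.62 ± 0.14, 0.0016). FUT10 was not called in WT (-0.18 ± 0.14, 0.53) or in T4V, where the groups overlapped in normalised counts (-0.02 ± 0.14, 0.95), though mitochondrial scaling called it in T4V (-0.60). TTI2, a chaperone cofactor gene that overlaps FUT10, was called lower in S5A (-0.78) and in no other line. FUT11 was called lower in the Degron line, at 6.87 and 6.5 TPM in treated cells, against 11.8 and 14.9 TPM in untreated cells (-0.86 ± 0.17, 0.00026). It was also called in S7A, at 7.77 and 8.54 TPM treated, against 13.2 and 10.4 TPM untreated (-0.48 ± 0.17, 0.031). That call was lost without untreated replicate 1 (0.36), treated replicate 1 (0.16) or treated replicate 2 (0.054), by DESeq2 (0.078) and without the low-count filter (0.071). In the other 5 lines FUT11 changed by -0.26 to 0.01 and was not called (0.24 and above). That rests on the scaling: with mitochondrial mRNAs FUT11 was called lower in 4 of these 5, at -0.94 in S5A, -0.74 in S2A, -0.61 in Y1F and -0.59 in T4V, and with the authors' factors in 3, at -1.15 in S5A, -1.13 in Y1F and -0.77 in S2A.

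FUT8, the only enzyme of core fucose, was called lower in 2 of the 7 lines. It was at 11.1 and 13.1 TPM in treated S2A cells, against 17.15 and 18.95 TPM in untreated S2A cells (log2 change -0.45 ± 0.11, adjusted p = 0.0025). It was at 12.2 and 11.8 TPM in treated S7A cells, against 16.2 and 16.1 TPM in untreated S7A cells (-0.37 ± 0.11, 0.0099). Each call was lost without 1 library, S2A treated replicate 1 (0.063) and S7A untreated replicate 1 (0.069), and the S7A call also without the low-count filter (0.12). In the other 5 lines the log2 change was -0.02 to 0.09 with a standard error of 0.11, the groups overlapped in normalised counts and none was called. This rests on the scaling: in T4V and S5A the sign turned, to -0.49 and -0.73, when libraries were scaled by the mitochondrial mRNAs, and to -0.94 in S5A by the authors' factors. Mitochondrial scaling also called FUT8 lower in the Degron line (-0.50) and in Y1F (-0.37).

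**Figure D4:**
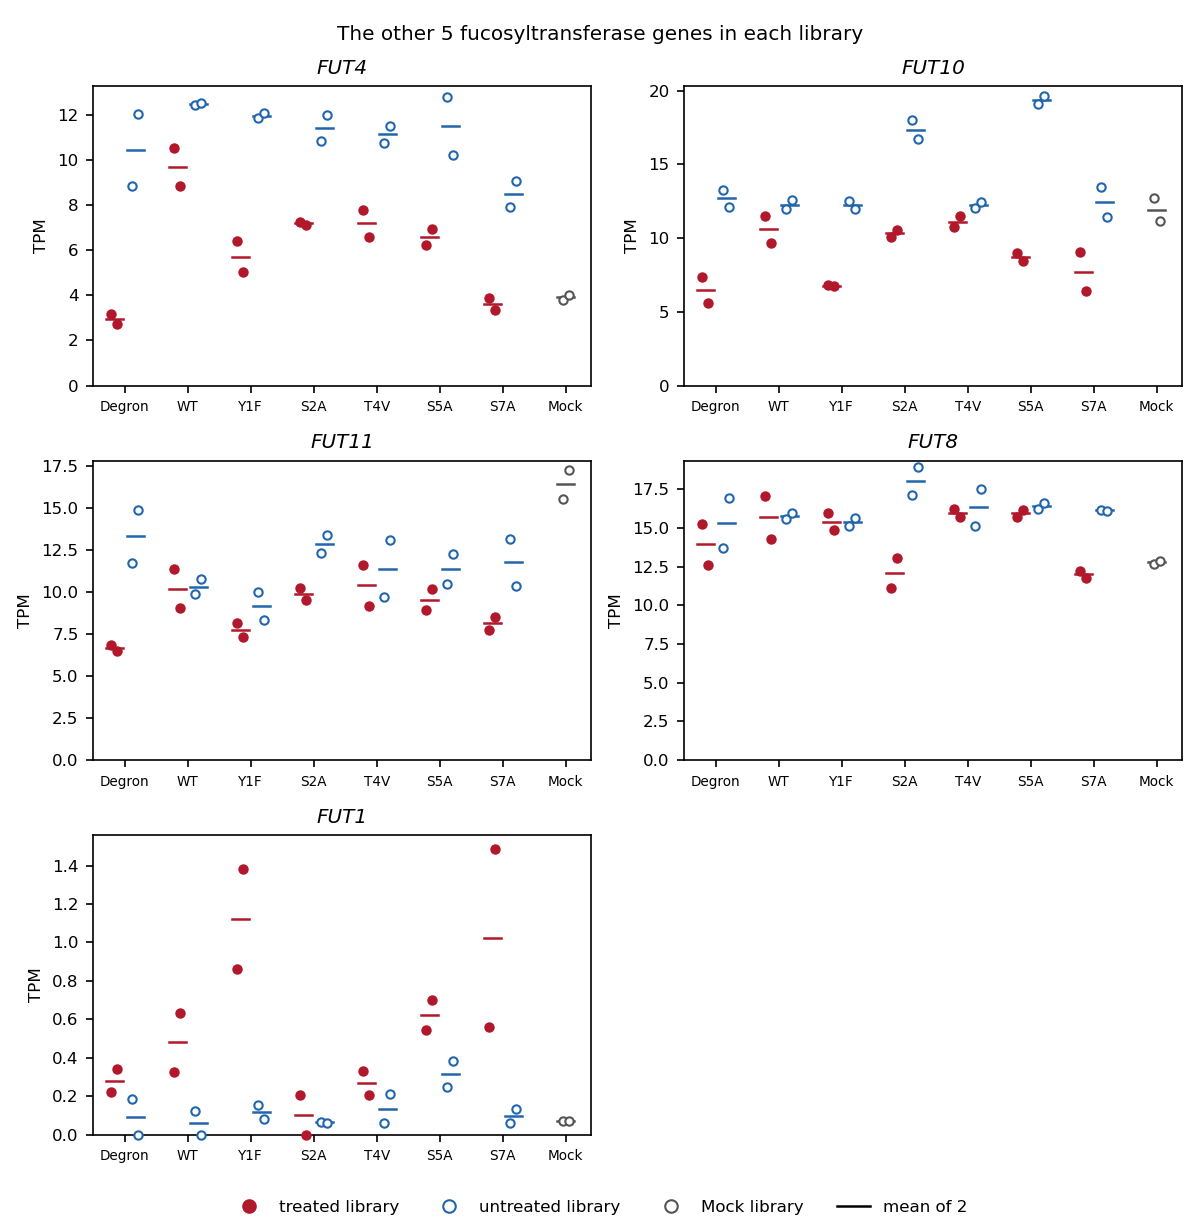
TPM of FUT1, FUT4, FUT8, FUT10 and FUT11 in each of the 30 libraries, by line with treated cells left of untreated cells and Mock last; points are libraries. In TPM, FUT4 and FUT10 lie lower in every treated group, FUT10 by little in WT and T4V, where it was not called. FUT8 is separated in S2A and S7A, and narrowly in S5A (15.73 and 16.18 TPM treated against 16.22 and 16.61 TPM untreated), where it was not called.

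Over the 7 members, the calls were set against all 19982 genes. In the Degron line 2 members were called higher and 3 lower, where 23.0% and 21.4% of all genes were called in these directions. In WT 1 was called higher (FUT3) and 0 lower by edgeR, against 3.09% and 1.84% of all genes. At an unadjusted p under 0.05, 1 member (FUT4) was lower in WT, and DESeq2 called 0 lower there. In Y1F, outside FUT3 and FUT6, 1 was called higher and 2 lower, against 23.0% and 21.0%. In S2A 2 were called higher and 3 lower, against 16.9% and 18.2%, and in T4V 2 higher and 1 lower, against 14.8% and 14.1%. In S5A, outside FUT3 and FUT6, 0 were called higher by edgeR, by DESeq2 or at an unadjusted p under 0.05, and 2 were called lower, against 25.5% and 24.2%. In S7A 3 were called higher and 4 lower, against 17.7% and 17.2%. The median log2 change of the 7 members was -0.37 in S7A, -0.25 in S2A and between -0.02 and 0.09 in the other lines, with FUT3 and FUT6 included, while that of all genes was -0.01 to 0.05. Scaling by the 13 mitochondrial mRNAs moved the median of all genes to between -0.17 (WT) and -0.70 (S5A), and the authors' factors moved it to between -0.19 (WT) and -0.92 (S5A). Over the 45 tests of a member in a line outside the choosing values, 11 calls were higher and 15 lower. They were 10 and 25 under mitochondrial scaling and 10 and 21 under the authors' factors. Mitochondrial scaling called 1894 (WT) to 11359 (S5A) of the 19982 genes lower and 406 (WT) to 2667 (Y1F) higher. The authors' factors called 379 (WT) to 12496 (S5A) lower and 274 (WT) to 1749 (S5A) higher. Lower calls were thus common among all genes outside WT under both, and the counts of members are no result about this family. All 11 higher calls were of FUT3, FUT6 and FUT1. FUT3 and FUT6 were chosen for their rise in Y1F and S5A. These genes also passed the low-count filter only or mostly through treated libraries, so the shares of all genes are no independent measure for the higher calls. In the authors' deposited table FUT3 was higher by 5.22 in S5A and 4.31 in Y1F on the log2 scale. The authors' deposited table does not call 5 results that were called higher here. FUT3 in WT is listed there with an adjusted p of 1, FUT6 in the Degron line with 0.12, FUT1 in Y1F with 0.16 and in S7A with 0.12, and FUT6 in T4V with none. The authors' deposited table lists FUT8 lower in 5 lines, at -1.19 in S7A, -0.96 in S2A, -0.94 in S5A, -0.89 in Y1F and -0.87 in the Degron line (adjusted p of at most 0.0023). The authors' deposited table has FUT11 lower in 5 lines as well, from -0.77 in S2A to -1.73 in the Degron line.

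**Figure D5:**
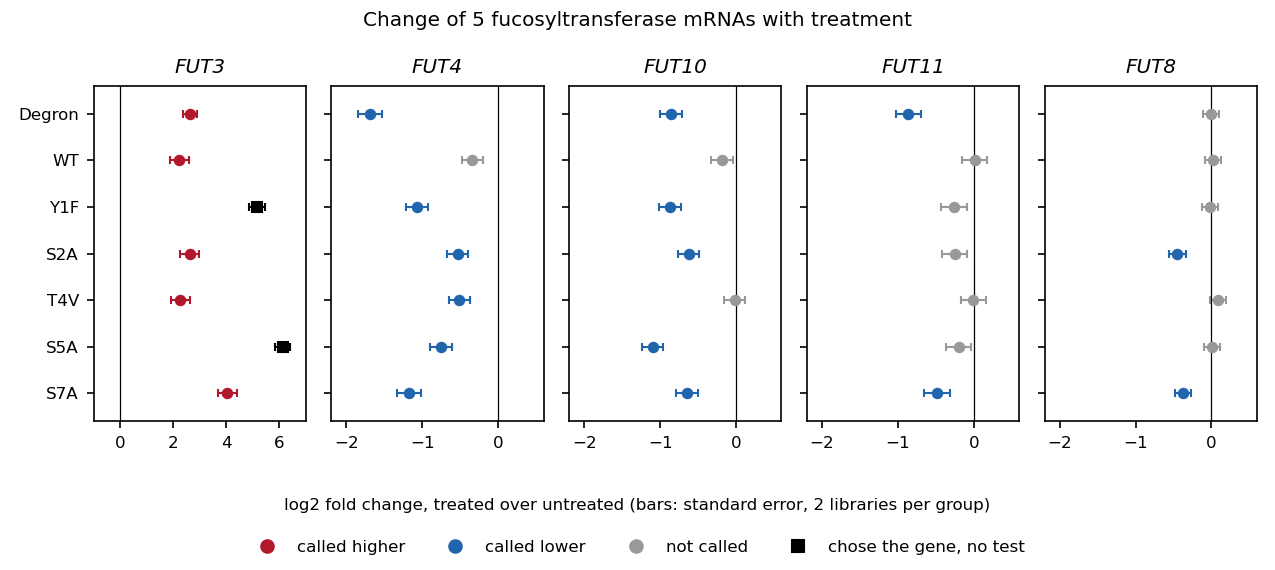
Log2 fold change of FUT3, FUT4, FUT8, FUT10 and FUT11, treated over untreated, in the 7 lines; bars are standard errors of the fit, with 2 libraries per group. FUT3 lies right of 0 in every line and FUT4 left of 0 in every line, and FUT3 in Y1F and S5A are the values that chose the gene.

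The differences in change ask what an intact complement adds to the degron line, and what each mutated tail does relative to the wild-type one. The comparisons of mutants all share the 4 WT libraries. WT against Degron gave 3 members called (each lower after treatment in Degron and not called in WT), against 12.0% of all genes in either direction. FUT4 had a log2 change of -0.34 in WT and -1.69 in the Degron line, a difference of 1.35 ± 0.21 (adjusted p = 0.00014). FUT11 had 0.01 in WT and -0.86 in Degron, a difference of 0.87 ± 0.24 (0.018), and FUT10 -0.18 in WT and -0.86 in Degron, a difference of 0.67 ± 0.20 (0.033). The FUT4 call held with any 1 library left out. The FUT11 call was lost without Degron untreated replicate 2 (0.08), Degron treated replicate 1 (0.052), WT untreated replicate 1 (0.073) or WT treated replicate 1 (0.056). The FUT10 call was lost without Degron untreated replicate 1 (0.15), Degron treated replicate 2 (0.13), WT untreated replicate 1 (0.1) or 2 (0.072), or WT treated replicate 1 (0.079), and without the low-count filter (0.14).

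Among the mutants, S5A gave 1 member called against WT (18.1% of all genes), Y1F 2 (9.75%), and S2A, T4V and S7A 0 each by edgeR (7.53%, 3.70% and 0.821%). FUT10 fell by more in S5A than in WT, with -1.10 and -0.18, a difference of -0.92 ± 0.20 (adjusted p = 0.0031) that held with any 1 library left out. In Y1F, FUT4 differed by -0.73 ± 0.20 from WT (0.023) and FUT10 by -0.69 ± 0.20 (0.036). The FUT10 difference was lost without any 1 of the 8 libraries (0.052 to 0.13), without the low-count filter (0.13) and by DESeq2 (0.052). The FUT4 difference was lost without WT untreated replicate 1 or 2, WT treated replicate 1, Y1F untreated replicate 1 or Y1F treated replicate 2 (0.052 to 0.096), and without the low-count filter (0.1). In S7A 3 members were lower and 1 higher at an unadjusted p under 0.05, with FUT4 nearest to a call (-0.84 ± 0.21, adjusted p = 0.057), and in S2A 2 were lower, with FUT8 nearest (-0.47 ± 0.15, 0.063). T4V had 0 at that threshold, and DESeq2 called 0 in all 3. Over all the tests of differences in change, mitochondrial scaling gave 3 higher and 9 lower calls, against 3 and 3.

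Before treatment, 4 members were called against Mock in at least 1 line, FUT3, FUT4, FUT10 and FUT11, in a setting where 62.9% to 64.8% of all genes were called. FUT4 was higher in all 7 untreated lines, at 7.90 to 12.8 TPM against 3.798 and 4.03 TPM in Mock (log2 difference 0.72 ± 0.15 in S7A to 1.23 ± 0.15 in WT). FUT11 was lower in all 7, at 8.34 to 14.9 TPM against 15.6 and 17.3 TPM in Mock (-0.71 ± 0.16 to -1.24 ± 0.17). Its call was lost in 5 lines under mitochondrial scaling. FUT3, with 0 and 1 reads in Mock, was called higher in 6 untreated lines, from a ratio of 6.40 in S5A (0.886 to 280) to 19.1 in the Degron line (3.13 to 782). Without Mock replicate 1 it stayed called in the Degron line, and its adjusted p was 0.066 to 0.25 in the other 5. DESeq2 also called it in the Degron line alone (0.055 to 0.28 in the others), and the calls in Y1F and S5A were lost without Y1F untreated replicate 2 (0.087) and S5A untreated replicate 1 (0.2). Called in either direction were 4 members in the WT line (against 63.6% of all genes), the Y1F line (62.9%) and the T4V line (63.0%). There were 3 in the Degron line (64.8%), the S2A line (64.1%) and the S5A line (63.4%), and 2 in the S7A line (63.5%). FUT10 made the fourth in WT, Y1F and T4V (-0.40 to -0.36), was no longer called there without Mock replicate 1 (0.15 to 0.23) or without untreated replicate 1 of the line (0.057 to 0.085), nor in Y1F and T4V without untreated replicate 2 (0.14 and 0.1), and turned to the other sign under mitochondrial scaling (0.26 to 0.42). In TPM the groups overlapped in each of these lines. FUT10 was at 11.9 and 12.6 TPM in untreated WT cells, against 12.7 and 11.1 TPM in Mock. It was at 12.54 and 11.96 TPM in untreated Y1F cells and at 12.03 and 12.45 TPM in untreated T4V cells. The line means (12.24 to 12.25 TPM) were above that of Mock (11.92 TPM), so the lower calls were not seen in TPM. Over all lines and members 13 calls were higher and 10 lower, against 27 and 2 under mitochondrial scaling. FUT1, FUT6 and FUT8 were not called in any line, and FUT8 turned sign under mitochondrial scaling in 6. The engineering of the lines and the difference in markers between them and Mock cannot be told apart here.

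Of the other fucosyltransferases, 4 of 6 were tested. In S5A 1 was called higher (FUT5) and 1 lower, where 25.5% and 24.2% of all genes were, so these counts were at that share. In each other line 0 were higher and 0 or 1 lower, against 3.09% (WT) to 23.0% and 1.84% (WT) to 21.4% of all genes. POFUT1, which fucosylates Notch receptors, was lower in 4 lines, for example at 60.9 and 60.4 TPM in treated T4V cells, against 89.6 and 90.5 TPM in untreated T4V cells (log2 change -0.45 ± 0.08, adjusted p = 0.00018). FUT2, the secretor enzyme, was not called in any line, and POFUT2 was lower in the Degron line alone (-0.37), a call lost without 3 of the 4 libraries in turn (up to 0.24). Of the 8 genes for GDP-fucose supply and fucose removal, 2 were higher and 2 lower in the Degron line, 1 and 4 in S5A, 1 and 3 in S2A and in S7A, 1 and 2 in Y1F and in T4V. With 14.8% to 25.5% of all genes called higher in these lines and 14.1% to 24.2% lower, the counts of 2 and 2 in the Degron line were at the share of all genes (23.0% and 21.4%). None was called in WT by edgeR (1, FUCA1, at an unadjusted p under 0.05). Their median log2 change was -0.38 (S2A) to 0.15 (Degron). FUCA1, a lysosomal fucosidase, was higher in each of these 6 lines. It was at 139 and 126 TPM in treated S5A cells, against 66.5 and 68.01 TPM in untreated S5A cells, and its log2 change ran from 0.61 in S2A to 1.03 in S5A. These 6 calls held with any 1 library left out, and 3 of them (S2A, T4V, S7A) were lost under mitochondrial scaling. GMDS, the first enzyme of GDP-fucose synthesis, was not called in any line.

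SLC35C2, a Golgi protein tied to the fucosylation of Notch, fell in the same 6 lines. It was at 9.20 and 10.1 TPM in treated S5A cells, against 33.2 and 33.6 TPM in untreated S5A cells (log2 change -1.74). The smallest of the 6 changes was -0.75 in S7A, and all 6 calls held with any 1 library left out. In WT it was at 21.2 and 23.9 TPM treated, against 29.04 and 25.7 TPM untreated, and was not called. Its change in S5A differed from that in WT by -1.49 ± 0.22 (adjusted p = 8.6e-05, at most 0.0012 with any 1 library left out). Among 14 tested enzymes that build the chains which these fucosyltransferases act on, 1 to 5 were lower in each line and 0 to 3 higher. Of all genes 1.84% (WT) to 24.2% (S5A) were lower and 3.09% (WT) to 25.5% (S5A) higher. The medians of these enzymes were -0.32 (S5A) to 0.02 (WT). In S5A they were 3 higher and 5 lower, where 25.5% and 24.2% of all genes were called, so the counts lay near the share of all genes. GCNT1, which starts branched O-glycans, was called lower in all 7 lines. It averaged 2.45 ± 0.06 TPM in treated and 9.49 ± 0.0037 TPM in untreated S5A cells (log2 change -1.90), and 2.48 ± 0.56 TPM in treated and 10.7 ± 1.22 TPM in untreated Degron cells (-1.99). Relative to WT its change differed by -1.27 in S5A and -1.07 in Y1F, and these calls held with any 1 library left out. Its calls in WT and T4V were each lost without 3 of the 4 libraries in turn (up to 0.27 and 0.1). Of 8 N-glycan core enzymes, MGAT3, which adds the bisecting residue, was lower in the Degron line (-1.35), Y1F (-1.03) and S5A (-0.86), and 0 to 3 others were higher in each line, where 3.09% (WT) to 25.5% (S5A) of all genes were. None of these higher calls held under mitochondrial scaling. That scaling called MGAT5 lower in the Degron line (-0.27) and in T4V (-0.29). In the main fit the median of the 8 enzymes was 0.03 (WT) to 0.24 (S7A).

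Sums of marker genes of other cell types moved with the rise of FUT3 and FUT6 in most lines. The 5 immune markers summed to 5.83 to 6.996 TPM in treated and 0.994 to 1.39 TPM in untreated S5A cells, and to 4.47 to 4.89 TPM in treated and 0.773 to 1.07 TPM in untreated Y1F cells. The Degron line had 5.06 to 5.197 TPM treated and 1.28 to 2.72 TPM untreated, and S7A 3.98 to 5.75 TPM treated and 0.865 to 0.987 TPM untreated. In WT the sum was 2.23 to 2.97 TPM treated and 0.577 to 1.56 TPM untreated, and in S2A 1.29 to 1.91 TPM treated and 0.687 to 0.770 TPM untreated. T4V, where FUT3 rose as well, had 2.40 to 3.23 TPM treated and 2.46 to 3.17 TPM untreated. The 4 endothelial markers summed to 2.78 to 2.81 TPM in treated and 1.07 to 1.56 TPM in untreated T4V cells, and to 2.62 to 3.37 TPM in treated and 0.330 to 0.595 TPM in untreated S2A cells. They were higher after treatment in Y1F, S5A, S7A and the Degron line too, without overlap, and overlapped in WT (1.19 to 1.58 TPM treated and 1.26 to 1.47 TPM untreated). KDR was at 0.228 to 2.54 TPM over the 28 libraries of the lines, while CDH5 was at 0 in 16 of them. The 5 fibroblast markers summed to 9.91 to 32.7 TPM in treated and 11.9 to 31.1 TPM in untreated cells of the lines. Over the 28 libraries of the lines, CD79A reached 5.89 TPM and LYZ 2.37 TPM, while PTPRC, the common leukocyte antigen, was at 0 in 20 libraries and at most at 0.0429 TPM, and CD3E was at 0 in 23. In Mock the 5 markers of HEK293 or neuronal cells summed to 4.51 to 5.92 TPM. They summed to 69.3 to 380 TPM in treated and 306 to 601 TPM in untreated cells of the lines, and were lower after treatment in each. The part of these shifts in the fucosyltransferase values was not tested.

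The genes whose 7 changes lay closest to those of FUT3 were PTGER3 (a prostaglandin receptor), GNLY (granulysin), CTSW (cathepsin W), GOLGA6B and FNDC7. Likeness was the root mean square difference in log2 change over the 7 lines, among 14259 genes averaging 1 CPM (counts scaled to library size) or more. It was 0.59 for PTGER3 and 0.60 for GNLY. PTGER3 changed by 6.29 in S5A, 5.10 in Y1F and 2.11 in WT, and GNLY by 6.24, 4.80 and 2.09. For FUT6 the nearest were SRGN (serglycin), ZSCAN10, PARP12, CTSW and LINC00899, at a wider distance (1.06 for SRGN and 1.199 for LINC00899). SRGN changed by 5.51 in Y1F, 5.15 in S5A and 1.00 in WT. These measures include the values that chose FUT3 and FUT6 and are a description.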

How the data were processed

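Poly(A) RNA of 30 libraries was sequenced as 150 bp paired-end reads, with 10% fly S2 cells added per the labels' protocols; the tables used here hold 0 fly genes. Per the submitters' processing notes, Trim Galore 0.6.2, STAR 2.7.3a, featureCounts 2.0.1 and DESeq2 1.24.0 were used with hg38 and dm6. The authors deposited raw counts per gene and TPM, and for each line a table with log2 fold changes, p-values and the base mean (a signal, the mean of normalised counts). The base means gave the authors' factors, solved from 29112 to 31625 genes a line. How these factors were made is not given in the sources used here.

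Counts of 19982 genes that passed filterByExpr (minimum count 10, minimum total 15) were fitted with edgeR 4.0.16 (TMM, quasi-likelihood, 1 coefficient for each of 15 groups, 15 residual degrees of freedom) in R 4.3.3, and p-values were adjusted by Benjamini-Hochberg within each of 20 comparisons and called under 0.05. Ratios for groups of 1 to 3 reads carry exact 95% counting intervals. TPM were used as deposited. Other scalings and filters, a replicate block, DESeq2 1.42.0 and each library left out were tried. Replicate numbers did not pair the libraries in 1 common way. The deviations of same-numbered treated and untreated libraries correlated at 0.64 in S7A, and at -0.74 in Degron, -0.60 in Y1F and -0.49 in WT. The main fit used no pairing. Of the table's IDs, 56659 matched GENCODE 29, coding sequences were aligned with MAFFT 7.526, and figures were drawn in Python 3.11.15. No 2 replicates agreed within counting noise (chi-square per degree of freedom 1.29 to 27.7). The members and gene lists were chosen with earlier results of these data known. All 7 members are named; of the other lists the counts and the called genes with the largest changes are given.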

Additional observations from a re-analysis of the deposited data

Results flagged for a closer look

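In 6 of 38 tests the change after treatment differed between lines by a test of the difference itself (edgeR quasi-likelihood test, adjusted over 19982 genes). Of all genes 12.0% were called for WT against Degron, 9.75% for Y1F against WT and 18.1% for S5A against WT. The 1 call among the 5 members tested for S5A lay near that share. FUT4 changed by -0.34 in WT and by -1.69 in the Degron line, a difference of 1.35 ± 0.21 on the log2 scale (adjusted p = 0.00014). FUT11 differed in the same direction between WT and Degron by 0.87 ± 0.24 (0.018) and FUT10 by 0.67 ± 0.20 (0.033). FUT4 fell by more in Y1F than in WT, with a difference of -0.73 ± 0.20 (0.023), and FUT10 likewise with -0.69 ± 0.20 (0.036). FUT10 differed by -0.92 ± 0.20 in S5A against WT (0.0031). The FUT4 difference of WT and Degron and the FUT10 difference of S5A and WT were called with any 1 library left out, and the other 4 were each lost without at least 4 single libraries in turn. The part of the difference in doxycycline, which the WT line received and the Degron line did not, was not tested.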

How the results depend on the processing

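Between treated and untreated cells 11 calls were higher and 15 lower over 45 tests of a member in a line. The differences in change gave 3 and 3 over 38. Untreated lines against Mock gave 13 and 10 over 49. Mitochondrial scaling gave 10 and 25, 3 and 9, and 27 and 2 over these 3 families. Among all 19982 genes it called 1894 (WT) to 11359 (S5A) lower after treatment. It turned the sign of FUT8 to -0.49 in T4V and -0.73 in S5A after treatment, and against Mock to 0.43 (Degron), 0.59 (WT), 0.49 (Y1F), 0.72 (T4V), 0.83 (S5A) and 0.76 (S7A). It turned FUT10 against Mock to 0.33 (WT), 0.26 (Y1F), 0.42 (T4V) and 0.48 (S7A). The authors' factors turned FUT8 in S5A to -0.94. Without the low-count filter the differences in change gave 2 and 1. A mean of at least 5 CPM, which removes FUT1, FUT3 and FUT6, gave 0 and 15, 3 and 5, and 7 and 11. DESeq2 gave 8 and 10 against Mock, and 10 and 14 after treatment. Leaving out 1 library at a time gave 10 to 11 higher and 13 to 15 lower after treatment, 1 to 3 and 1 to 4 for the differences in change, and 8 to 14 and 7 to 12 against Mock. With the replicate number as a block the counts were 11 and 15, 3 and 3, and 13 and 12. Same-numbered libraries correlated between -0.74 (Degron) and 0.64 (S7A) in their deviations. Chosen after seeing the data, a crossed pairing in Degron, WT and Y1F gave 11 and 15, 3 and 4, and 13 and 11, and a fit without Mock gave 11 and 15, and 3 and 3. A fit on the 4 libraries of each line alone, which has fewer degrees of freedom, gave 8 and 11 over 37 tests. FUT1 and FUT6 are limited by depth, with 0 to 5 reads in every untreated library.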

Other observations

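FUT9, the Lewis x enzyme of the brain, had 0 reads in every untreated library of the 7 lines and in Mock. Treated cells had 8 reads over both libraries in the Degron line, 7 in S5A, 6 in Y1F, 2 in S7A, 1 in S2A, 1 in T4V and 0 in WT. FUT7, the leukocyte enzyme of sialyl Lewis x, had 0 to 2 reads in each library. Neither passed the filter on low counts, so neither was tested. B3GALT5, which builds the type of chain that carries Lewis a, had 0 reads in every untreated line and 195 in Mock. In treated cells it had 4 to 12 reads over both libraries of a line. B3GALT5 was called higher after treatment in every line but WT, by 4.26 (S2A) to 5.32 (Degron) on the log2 scale. The size of these changes rests on 0 untreated reads. Its S2A call was lost without any 1 of the 4 libraries, and its T4V call without 3 of the 4 in turn.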
